A study of Mus musculus with 26 samples.

Results

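A list of 40 genes of liver stellate cells, collagens and extracellular matrix is described here across mouse liver RNA-seq libraries. They are 40 of the 47643 genes in the deposited count table, were taken from a list of symbols, and all 40 were found. They fall into 7 roles: fibrillar collagens, other collagens, stellate cell and contractile genes with the PDGF receptors, proteoglycans with elastic fibre and matricellular genes, cross-linking enzymes, proteases with their inhibitors, and TGF-β ligands with an activator of latent TGF-β.

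The study comprised 26 libraries in 10 groups, forming 5 experiments that each set a treated or mutant group against its own control. Mice were C57BL/6J except in the surgery experiment, which used C3H/HeN. Wild type mice aged 8 weeks, fed ad libitum, received corn oil (2 libraries) or TCPOBOP (2 libraries), an agonist of the nuclear receptor CAR. The TCPOBOP sample titles give 36 h after injection and their source names 6 h, so the interval is uncertain. Wild type mice (3) were set against Fxr-/- Shp-/- mice (3), both aged 12 weeks and fed ad libitum. FXR (gene Nr1h4) is the nuclear bile acid receptor and SHP (Nr0b2) is a repressor that it induces. C3H/HeN mice aged 8 to 10 weeks and fed ad libitum were sampled at 0 h as sham (3) or 48 h after partial hepatectomy (3), so sham and hepatectomy differ in time as well as in tissue removal, and no genotype is labelled for them. Hepatocytes isolated from wild type mice aged 16 weeks after a 10 h fast came from chow (2) or 60% high fat diet (2). Livers of fl/fl Fxr fl/fl Shp mice aged 10 to 12 weeks after a fast of 8 to 10 h came from chow (3) or a cholic acid diet (3). Both of those groups carry the floxed alleles, and the labels name no Cre for either. All samples other than the hepatocytes were whole liver. The labels do not say how the replicates were taken, so p-values measure only the spread between these libraries, which may be technical.

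Stellate cells lie between hepatocytes and the sinusoidal endothelium and store vitamin A as retinyl esters. In injured liver they can become contractile, matrix-producing cells that secrete fibrillar collagens, a change driven among others by TGF-β and PDGF. Matrix is then cross-linked by lysyl oxidases and degraded by matrix metalloproteinases, which tissue inhibitors of metalloproteinases (TIMPs) hold in check. Fibroblasts, endothelial cells, macrophages and hepatocytes express some of these genes too. In whole liver RNA, fewer cells of a type and less RNA per cell cannot be told apart.

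These promoters are printed to show the sequence upstream of genes with contrasting patterns: Col3a1, a fibrillar collagen that rose in 3 comparisons; Timp1 and Mmp13, an inhibitor and a protease with large rises in the mutants; and Ecm1, a matrix glycoprotein that fell in 2 comparisons. Each is the 250 bases before the RefSeq gene start in GRCm38.p6, read 5′ to 3′ along the gene's strand, in lower case. Capitals mark matches on either strand to 4 motifs: the TATA box, spelled TATAAA here, the AP-1 motif, spelled TGANTCA, the CCAAT box, read as those 5 letters, and the GC box, spelled GGGCGG. The windows are chr1:45311288-45311537 on the plus strand for Col3a1, chrX:20869916-20870165 on the plus strand for Timp1, chr9:7272264-7272513 on the plus strand for Mmp13 and chr3:95739570-95739819 on the minus strand for Ecm1, and 0 exons overlap them.
Col3a1: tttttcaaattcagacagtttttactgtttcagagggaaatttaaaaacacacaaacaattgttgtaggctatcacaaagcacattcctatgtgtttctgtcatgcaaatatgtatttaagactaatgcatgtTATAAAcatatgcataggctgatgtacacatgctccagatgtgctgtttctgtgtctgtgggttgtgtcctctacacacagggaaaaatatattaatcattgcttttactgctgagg
Timp1: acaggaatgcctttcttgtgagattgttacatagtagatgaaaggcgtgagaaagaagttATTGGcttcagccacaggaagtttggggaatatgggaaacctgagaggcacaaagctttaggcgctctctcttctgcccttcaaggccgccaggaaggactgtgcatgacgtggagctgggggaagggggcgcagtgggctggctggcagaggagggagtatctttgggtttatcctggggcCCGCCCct
Mmp13: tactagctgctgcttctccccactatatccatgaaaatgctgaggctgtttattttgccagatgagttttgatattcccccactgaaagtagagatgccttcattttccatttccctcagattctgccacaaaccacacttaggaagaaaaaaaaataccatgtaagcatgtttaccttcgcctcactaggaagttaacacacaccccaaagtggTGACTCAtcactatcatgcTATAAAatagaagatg
Ecm1: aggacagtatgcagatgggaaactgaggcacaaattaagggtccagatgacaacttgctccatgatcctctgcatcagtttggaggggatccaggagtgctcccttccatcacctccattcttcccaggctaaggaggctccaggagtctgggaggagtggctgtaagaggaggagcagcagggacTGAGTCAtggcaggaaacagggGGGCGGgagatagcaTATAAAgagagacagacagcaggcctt
The Col3a1 window held 1 match, a TATA box whose first base lies 117 bases before the start. The Timp1 window held a CCAAT box 190 bases before the start and a GC box 8 bases before it, both read on the opposite strand. Mmp13 had a TATA box at 16 bases and an AP-1 motif at 35 bases. Ecm1 had a TATA box at 27, a GC box at 42 and an AP-1 motif at 64 bases. No match overlapped another. Over the 32817 RefSeq windows of that length, the TATA box was present in 12.4%, the AP-1 motif in 6.75%, the CCAAT box in 33.8% and the GC box in 32.7%, so these matches are descriptions of the windows only. RefSeq windows were matched for 26 of the 40 genes.

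Gene counts per library ran from 13949059 to 70367874, and the floor of 3 counts corresponded to 0.0426 to 0.215 CPM, the counts scaled to library size with TMM factors over all 26 libraries. In Fxr-/- Shp-/- libraries Nr0b2 was at 0.563 to 1.60 CPM against 13.3 to 26.9 in wild type, and Nr1h4 at 52.9 to 61.6 against 114 to 153. The part of Nr1h4 that was deleted is not given in the sources used here. Cyp2b10, the standard CAR target, had 10.0 CPM in corn oil 2 but 3673 in the other corn oil library, beside 3421 and 2977 with TCPOBOP. The library labelled corn oil 1 therefore goes against its label, and every TCPOBOP value below is also given without it where that changes a call. The hepatocyte libraries held Alb at 69015 to 75612 CPM. They also held sinusoidal endothelial and Kupffer cell markers, while the bile duct markers Krt19, Epcam and Cldn7 were at 0 counts in both chow hepatocyte libraries. Other bile duct markers were present: the list of 8 summed to 30.3 and 27.1 CPM there, against 53.8 to 128 in control whole livers.

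Per kb of exon, the most abundant of the 40 genes in wild type liver was Ecm1 at a mean of 52.1 CPM per kb, followed by Dcn at 27.7, Bgn at 12.9 and Sparc at 8.84. Dcn (decorin) and Bgn (biglycan) are small leucine-rich proteoglycans, and Sparc is a collagen-binding matricellular protein. At the other end of the wild type order stood the metalloproteinases Mmp12 at 0.0325 and Mmp13 at 0.0215 CPM per kb. In Fxr-/- Shp-/- liver the order at the top was Dcn at 49.3, Ecm1 at 25.7, Bgn at 20.2 and Sparc at 19.3 CPM per kb, so Dcn and Ecm1 changed places. The Ecm1 libraries of the 2 genotypes did not overlap.

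Most of these transcripts were low in isolated hepatocytes. The summed CPM of the 40 genes was 110 and 105 in the chow hepatocyte libraries, against 398 to 831 over the 11 control whole livers. In both chow hepatocyte libraries 34 of the 40 genes lay below every control liver. Restricted to genes whose median control liver level was above the highest floor, that held for 33 of 38 of the listed genes and for 13.1% of the 13882 genes meeting the same condition. The hepatocytes came from another experiment, with older mice after a fast, so tissue and experiment cannot be told apart and no test was made.

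Col1a1, a chain of type I collagen, had 3 and 2 counts in the chow hepatocyte libraries, which is 0.0581 and 0.0346 CPM, and its mean was 0.756% of the control liver median of 6.13 CPM. Col3a1, the chain of type III collagen, was at 0.832 and 0.433 CPM, a mean of 3.21% of the liver median of 19.7. Dcn was at 8.29 and 5.52 CPM, a mean of 5.80% of 119. Genes of the stellate cell itself were also low: Lrat, which esterifies retinol for storage, averaged 10.9% of its liver median, and Reln (reelin), a secreted glycoprotein made by stellate cells, averaged 11.8%. The intermediate filament gene Des, at 25.1%, and Thbs1 (thrombospondin 1, which can activate latent TGF-β), at 33.5%, were the least reduced of the 34. Timp1 was at 0 counts in both.

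The 6 exceptions were Col4a1, Col4a2, Col15a1, Lox, Mmp12 and Mmp13. Col4a1 and Col4a2 encode the main chains of basement membrane type IV collagen. Col4a2 was at 36.3 and 38.6 CPM in chow hepatocytes, 184% of the control liver median of 20.3, and Col4a1 at 22.4 and 24.7 CPM, 79.7% of 29.5. Col15a1, a basement membrane zone collagen, averaged 101% of its liver median of 6.96 CPM. Lox, Mmp12 and Mmp13 lay within or at the edge of the control liver range, which reached down to 0 or close to it for each. Levels of the type IV chains in hepatocyte libraries were thus near or above those of whole liver, while type I and type III chains were far below.

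**Figure D1:**
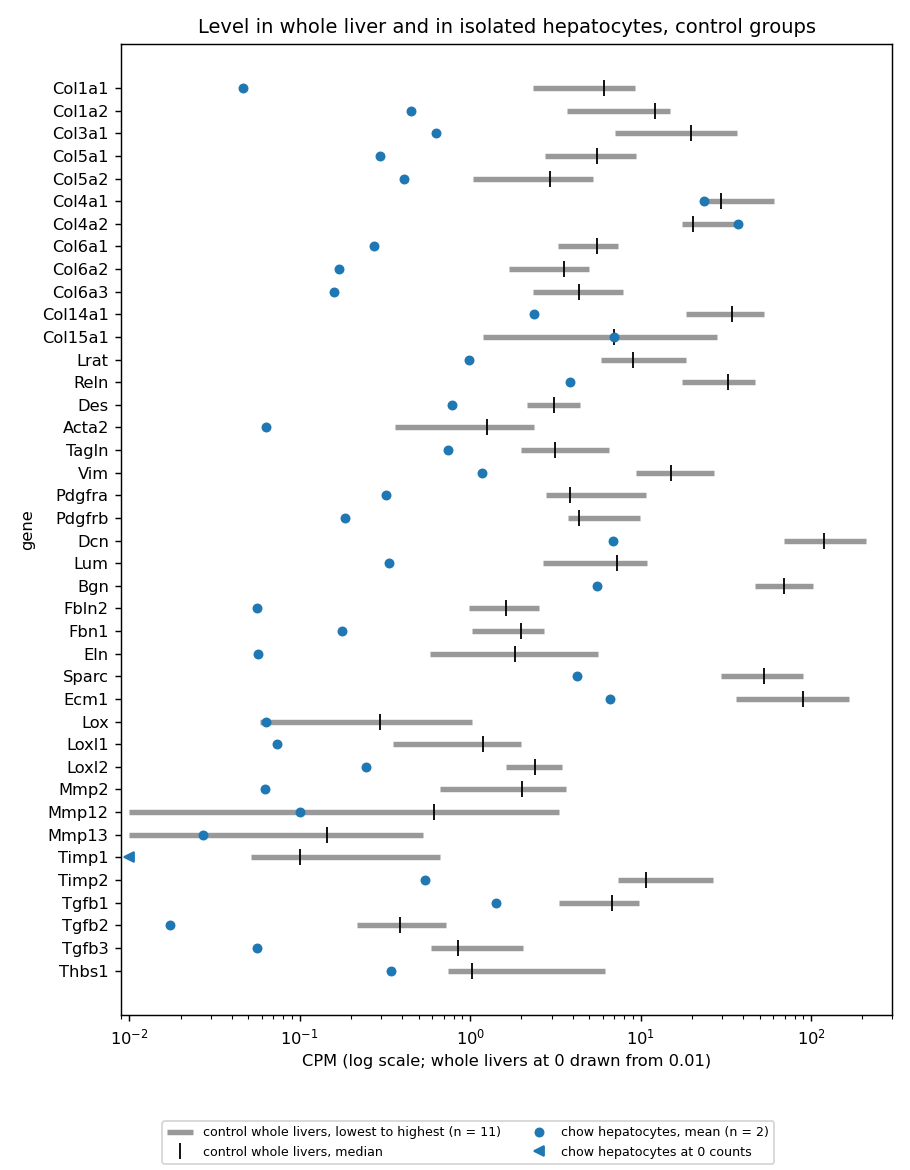
Levels of the 40 genes in CPM on a log axis. Lines show the range and marks the median over the 11 control whole livers, and separate points show the mean of the 2 chow hepatocyte libraries. Col4a2 and Col15a1 lie at or above the liver median, and Col1a1 is at 0.756% of it.

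Loss of Fxr and Shp raised most of the list. In Fxr-/- Shp-/- liver against wild type, 33 of the 40 genes rose, 1 fell (Ecm1) and 6 did not pass the edgeR quasi-likelihood test at a Benjamini-Hochberg adjusted p under 0.05 over all genes. That is 85% of the list called changed, beside 40.4% of the 13473 genes tested (21% raised and 19.4% lowered). The median log2 fold change was 1.47 over the list and -0.01 over all genes. Summed CPM of the 40 genes was 544 to 831 in wild type and 1073 to 1226 in the mutants.

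Among fibrillar collagens, which form the tensile fibres of scar, 4 of 5 rose. Col1a1 was at 3.87, 5.78 and 2.35 CPM in wild type and at 24.2, 22.1 and 15.7 in Fxr-/- Shp-/- liver. Every mutant library was above every wild type library, and the log2 fold change was 2.39 ± 0.29 (SE, n = 3 per group, adjusted p = 0.000371, edgeR). Col3a1 was at 10.5, 13.4 and 7.06 against 46.7, 49.0 and 26.3 CPM, again without overlap, a log2 change of 2.00 ± 0.28 (adjusted p = 0.000815, edgeR). Col1a2, the partner chain of Col1a1, rose by 1.52 ± 0.27 and the type V chain Col5a2 by 1.44 ± 0.26. The other type V chain, Col5a1, which takes part in starting fibril assembly, had a log2 change of 0.54 with an adjusted p of 0.121 (edgeR), and its libraries overlapped.

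Of the 7 other collagens 5 rose. Col4a1 was at 22.7, 32.0 and 29.5 CPM in wild type and at 108, 89.4 and 87.3 in the mutants, a log2 change of 1.78 ± 0.14 (adjusted p = 4.12e-05, edgeR). Col4a2 was at 19.4, 25.2 and 20.5 against 51.6, 45.5 and 73.4 CPM, a log2 change of 1.41 ± 0.19. Both type IV chains were thus higher in every mutant library. Their genes lie head to head on chromosome 8 and overlap by 22 bases. The 3 microfibrillar type VI chains rose by log2 values of 1.34 for Col6a1, 1.51 for Col6a2 and 1.77 for Col6a3. The fibril-associated collagen gene Col14a1, at 0.44 (adjusted p = 0.0998, edgeR), and Col15a1, at -0.34, did not pass.

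Of the 8 stellate cell, contractile and PDGF receptor genes 6 rose. Lrat was at 7.74, 12.5 and 6.82 CPM in wild type and 16.5, 17.3 and 20.3 in the mutants, a log2 change of 1.02 ± 0.22 (adjusted p = 0.00632, edgeR). Acta2, the smooth muscle actin of contractile stellate cells, was at 0.568, 0.361 and 0.941 against 2.43, 3.27 and 1.43 CPM, a log2 change of 1.94 ± 0.42 (adjusted p = 0.00674, edgeR). Both the vitamin A storage enzyme and the contractile actin were therefore higher in every mutant library. Tagln (transgelin, an actin-binding protein) rose by 1.92 ± 0.17, though 67.9% of its exon bases overlap genes on the other strand, and whether the counting used strand is not given in the sources used here. Vim (vimentin) rose by 1.37 ± 0.12, Pdgfra by 1.28 ± 0.23 and Pdgfrb by 1.50 ± 0.22, the last 2 being the receptors for PDGF. Reln and Des, each with a log2 change of 0.29, did not pass.

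All 8 proteoglycan, elastic fibre and matricellular genes changed, 7 up and 1 down. Dcn was at 148, 209 and 129 CPM in wild type and 288, 249 and 325 in the mutants, a log2 change of 0.85 ± 0.19 (adjusted p = 0.00711, edgeR). Sparc rose by 1.15 ± 0.15, the microfibril gene Fbn1 (fibrillin 1) by 1.78 ± 0.29 and Eln (elastin) by 1.66 ± 0.20. Smaller rises were seen for Lum (lumican, 0.90), Bgn (0.67) and Fbln2 (fibulin 2, 1.02). Ecm1 moved the other way, at 120, 166 and 108 CPM in wild type and 73.1, 61.6 and 59.9 in the mutants, and fell by 1.00 on the log2 scale (SE 0.17, adjusted p = 0.00186, edgeR). Of Fbn1, 20.1% of exon bases overlap a gene on the other strand.

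The 3 cross-linking enzymes rose: Lox by 1.59 ± 0.48, Loxl1 by 1.60 ± 0.38 and Loxl2 by 1.22 ± 0.22 on the log2 scale. Lox rested on 33 counts in wild type and 131 in the mutants, a ratio, scaled for library size, of 3.00 with a 95% exact counting interval of 2.03 to 4.53, which covers counting error only. Without wild type 1, wild type 3 or Fxr-/- Shp-/- 1 the adjusted p of Lox was 0.0744, 0.0532 and 0.0778 (edgeR). Lum lost its call without wild type 1 (log2 0.83, adjusted p = 0.0588, edgeR). Bgn lost it without wild type 1 (0.56, adjusted p = 0.0598) and wild type 3 (0.55, adjusted p = 0.0536). The other 31 calls were kept whichever library was left out. Some genes passed once a library was removed: without wild type 2, Col5a1 (0.91, adjusted p = 0.00707), Col14a1 (0.68, adjusted p = 0.0128) and Reln (0.50, adjusted p = 0.0192); without Fxr-/- Shp-/- 3, Col14a1 (0.54, adjusted p = 0.0445) and Tgfb1 (0.68, adjusted p = 0.0215).

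Proteases and their inhibitors held the largest rises of the list. Mmp12, the macrophage elastase, was at 0.103, 0.602 and 0 CPM in wild type and 23, 19.6 and 6.83 in the mutants. With 12 counts against 1142 the ratio was 71.8, with a counting interval of 41.0 to 139, and the fitted log2 change was 6.16 ± 0.74 (adjusted p = 0.000336, edgeR). Mmp13, a collagenase, was at 0.0516, 0.120 and 0 against 2.34, 2.69 and 0.573 CPM, a ratio of 32.5 (10.9 to 159) over 3 and 129 counts. Timp1 was at 0.0516, 0.0602 and 0.0588 against 1.39, 1.63 and 1.06 CPM, a ratio of 23.9 (7.94 to 118) over 3 and 95 counts. All 3 genes were near the floor in wild type and above it in every mutant library, and the width of these intervals follows from the low wild type counts. The gelatinase gene Mmp2 rose by 1.61 ± 0.27 and Timp2 by 1.32 ± 0.22. Mmp12 and Mmp13 are neighbours on chromosome 9, 61049 bases apart.

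Among TGF-β genes 3 of 4 rose. Thbs1 was at 0.981, 0.903 and 0.765 CPM in wild type and 10.4, 7.33 and 10.4 in the mutants, a log2 change of 3.42 ± 0.23 (adjusted p = 1.60e-05, edgeR), the smallest adjusted p of the list. Tgfb3 was at 0.671, 0.843 and 1.00 against 2.56, 2.21 and 2.33 CPM, a log2 change of 1.52 ± 0.25, and 12.4% of its exon bases overlap genes on the other strand. Tgfb2 rose by 2.17 ± 0.41. Tgfb1, the most abundant of the 3 ligands per kb in wild type liver, had a log2 change of 0.53 with an adjusted p of 0.0716 (edgeR), and the libraries of both genotypes overlapped.

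Markers of other cells were also called in the same livers, where 40.4% of all genes tested were called (21% raised and 19.4% lowered). Of the recruited macrophage and leukocyte markers, 7 of 10 tested rose and their summed level was 25.3 to 32.4 CPM in wild type and 70.8 to 95.9 in the mutants; Gpnmb and Trem2 of lipid-associated macrophages rose by 5.43 and 5.87 on the log2 scale. Bile duct markers rose in 4 of 7 tested (summed 53.8 to 76.3 against 74.6 to 171 CPM). Sinusoidal endothelial markers rose in 3 of 10 (118 to 223 against 207 to 303). Kupffer cell markers rose in 2 and fell in 1 of 8, and hepatocyte markers fell in 4 of 8. Portal fibroblast, smooth muscle and mesothelial markers rose in 2 and fell in 1 of 7 tested, with a median log2 change of 0.90. The sum over all 13 of them was nevertheless lower, at 57.1 to 62.1 against 48.0 to 50.3 CPM. In chow hepatocytes the same sum was 116 and 120 CPM, so it is not a measure of these cells alone. Further stellate cell markers rose in 5 and fell in 2 of 13 tested, with a median log2 change of 0.75. Their summed level was 434 to 582 against 408 to 476 CPM, of which Cxcl12 alone averaged 387 and 210. The part of these markers in the rise of the matrix genes was not tested.

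**Figure D2:**
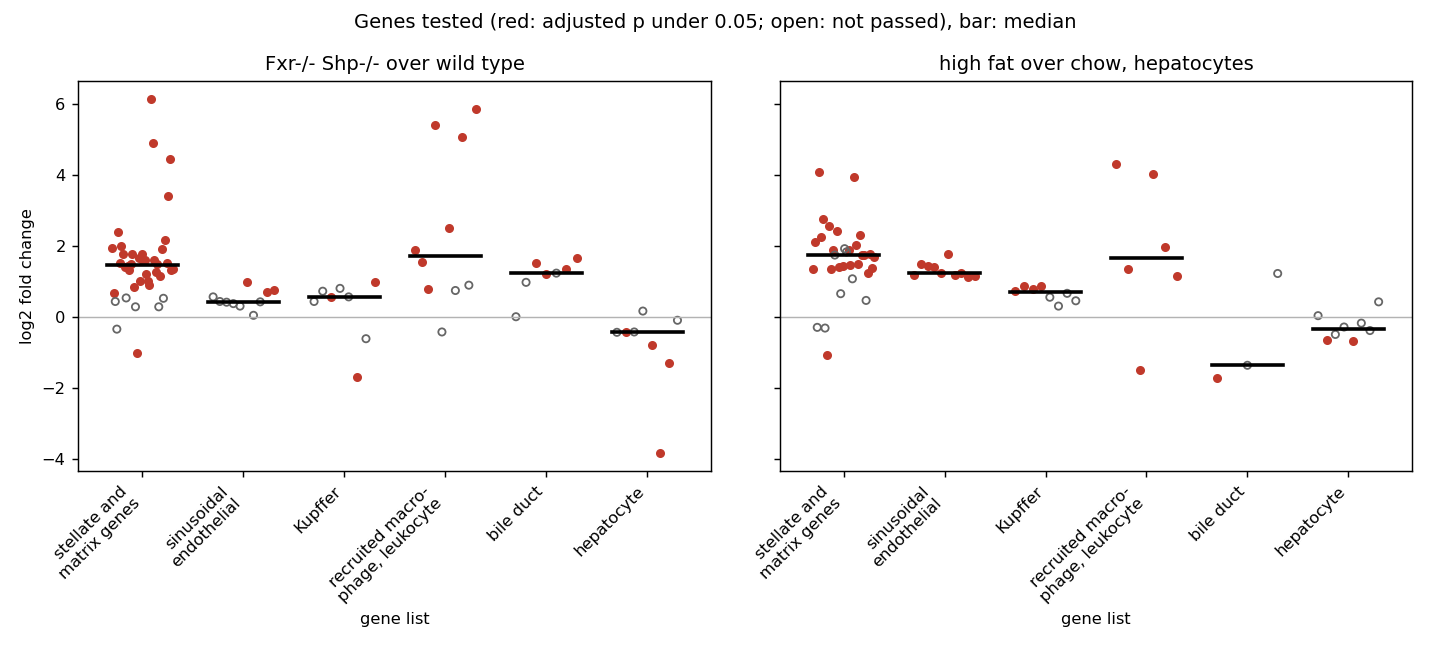
Log2 fold changes of single genes (points) in the 40-gene list and in the cell type marker lists, for Fxr-/- Shp-/- against wild type liver and for high fat diet against chow hepatocytes. The 40 genes have a median of 1.47 in the knockout comparison and 1.75 in hepatocytes, and the recruited macrophage markers reach 5.87 in the knockout.

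At 48 h after partial hepatectomy the genes moved in both directions. Against sham liver 14 of the 40 rose, 4 fell (Col14a1, Ecm1, Tgfb3 and Thbs1) and 22 did not pass. Called changed were 45% of the list, beside 30.7% of the 13753 genes tested (16.4% raised and 14.3% lowered). The median log2 change was 0.40 over the list and 0.01 over all genes. Proliferation markers rose in 5 of 5, with a median log2 change of 5.56, and sinusoidal markers fell in 3 of 10. Hepatocyte markers rose in 1 and fell in 3 of 8, portal fibroblast, smooth muscle and mesothelial markers rose in 1 and fell in 2 of 10 tested, and 1 marker each rose of the Kupffer, recruited macrophage and bile duct lists. Further stellate cell markers rose in 2 and fell in 2 of 13 tested, and their summed level was 428 to 505 CPM in sham and 452 to 512 after hepatectomy. The part of these markers in the results was not tested.

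Among fibrillar collagens 3 of 5 rose. Col5a2 was at 3.03, 2.22 and 2.94 CPM in sham and 7.86, 11.9 and 7.22 after hepatectomy, a log2 change of 1.72 ± 0.23 (n = 3 per group, adjusted p = 0.00121, edgeR). Col1a1 was at 6.13, 6.66 and 7.78 against 12.3, 16.9 and 10.7 CPM, a log2 change of 0.95 ± 0.19 (adjusted p = 0.00709, edgeR). Col3a1 was at 29.9, 28.6 and 34.4 against 45.2, 60.1 and 43.7 CPM, a log2 change of 0.68 ± 0.14 (adjusted p = 0.00793, edgeR). None of these 3 genes overlapped between the groups. Col3a1 and Col5a2 lie on chromosome 1 with 24614 bases between them. In a single fit of all 26 libraries, in which the spread is shared with the other experiments, Col1a1 and Col3a1 had adjusted p values of 0.0726 and 0.233.

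The other collagens were divided: 2 rose, 1 fell and 4 did not pass. Col4a1 was at 33.6, 30.6 and 23.6 CPM in sham and 69.8, 75.7 and 52.2 after hepatectomy, a log2 change of 1.17 ± 0.17 (adjusted p = 0.00165, edgeR), and Col4a2 rose by 1.11 ± 0.19. Col14a1 was at 39.9, 41.5 and 52.8 against 26.3, 27.4 and 26.8 CPM and fell by 0.74 on the log2 scale (SE 0.12, adjusted p = 0.00285, edgeR). Basement membrane chains and the fibril-associated chain thus moved in opposite directions. For Col6a2, at 0.53, and Col6a3, at 0.47, all hepatectomy libraries were above all sham libraries, but the adjusted p values were 0.0546 and 0.0730 (edgeR). Col6a2 passed without hepatectomy 1 (0.63, adjusted p = 0.0479), Col6a3 without hepatectomy 3 (0.58, adjusted p = 0.0338), Col6a1 without sham 3 (0.83, adjusted p = 0.0453) and Col15a1 without sham 1 (1.08, adjusted p = 0.00687).

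Of the stellate cell, contractile and PDGF receptor genes only Vim passed, with a log2 rise of 0.62 ± 0.12. Lrat was at 16.2, 9 and 10.5 CPM in sham and 9.88, 6.17 and 7.11 after hepatectomy, a log2 difference of -0.62 with an adjusted p of 0.0989 (edgeR). Acta2 was at 2.26, 1.64 and 1.10 against 2.62, 3.33 and 2.11 CPM, a difference of 0.69 with an adjusted p of 0.111. Both sets of libraries overlapped. Without hepatectomy 1 the Lrat difference was -0.83 with an adjusted p of 0.0483. Reln differed by -0.10. The desmin gene Des (0.39, adjusted p = 0.132), Pdgfra (0.40, adjusted p = 0.181) and Pdgfrb (0.32, adjusted p = 0.183) were higher in every hepatectomy library but did not pass.

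Among proteoglycan, elastic fibre and matricellular genes 5 rose and 1 fell. Eln was at 1.52, 0.585 and 0.902 CPM in sham and 4.27, 4.17 and 3.43 after hepatectomy, a log2 change of 1.99 ± 0.31 (adjusted p = 0.00255, edgeR). Lum rose by 0.87 ± 0.13, Fbln2 by 0.89 ± 0.18, Fbn1 by 0.68 ± 0.21 and Sparc by 0.40 ± 0.09. Ecm1 was at 79.9, 59.2 and 89.1 against 32.7, 34.6 and 41.1 CPM, with no overlap, and fell by 1.07 on the log2 scale (SE 0.16, adjusted p = 0.00192, edgeR). Ecm1 is the only one of the 40 that fell in both the knockout and the hepatectomy comparison. Fbn1 lost its call without sham 2, sham 3 or hepatectomy 1 or 2 (log2 0.58 to 0.63, adjusted p 0.108 to 0.143, against 0.68 with all libraries).

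Cross-linking enzymes rose in 2 of 3. Lox was at 0.258, 0.0585 and 0.134 CPM in sham and 0.740, 1.04 and 0.379 after hepatectomy, a ratio of 4.85 (counting interval 2.72 to 9.28) over 14 and 76 counts. Loxl2 rose by 0.79 ± 0.20 on the log2 scale. Without sham 2, sham 3 or hepatectomy 2, both lost their calls, with adjusted p values of 0.0654 to 0.0762 for Lox and 0.0595 to 0.0778 for Loxl2 (edgeR). Of the proteases and inhibitors only Timp1 passed. It was at 0.129, 0.0877 and 0.1 CPM in sham and 2.11, 2.64 and 0.703 after hepatectomy, a ratio of 17.1 (9.07 to 36.1) over 10 and 191 counts and a fitted log2 change of 4.06 ± 0.61 (adjusted p = 0.00204, edgeR). Timp1 therefore stood well above sham in all 3 hepatectomy libraries. Mmp12, Mmp13, Mmp2 and Timp2 did not pass, though without hepatectomy 2 Mmp12 was lower by a log2 value of -1.25 (adjusted p = 0.0278).

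In the TGF-β group 2 of 4 fell and none rose. Thbs1 was at 6.22, 0.877 and 2.00 CPM in sham and 0.598, 0.493 and 0.379 after hepatectomy, and fell by 2.62 on the log2 scale (SE 0.69, adjusted p = 0.0225, edgeR). Sham 1 was far above the other two, and without it the log2 difference was -1.55 (adjusted p = 0.0391). Without hepatectomy 2 or 3 the adjusted p was 0.0678 and 0.0514. Tgfb3 was at 1.48, 2.05 and 1.50 against 0.712, 0.899 and 1.05 CPM and fell by 0.92 (SE 0.26, adjusted p = 0.0294, edgeR). Its call was lost without sham 2, sham 3, hepatectomy 1 or hepatectomy 2, with adjusted p values of 0.0612 to 0.120. Thbs1 and Tgfb3 are the 2 genes that rose in the knockout and fell after hepatectomy.

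**Figure D3:**
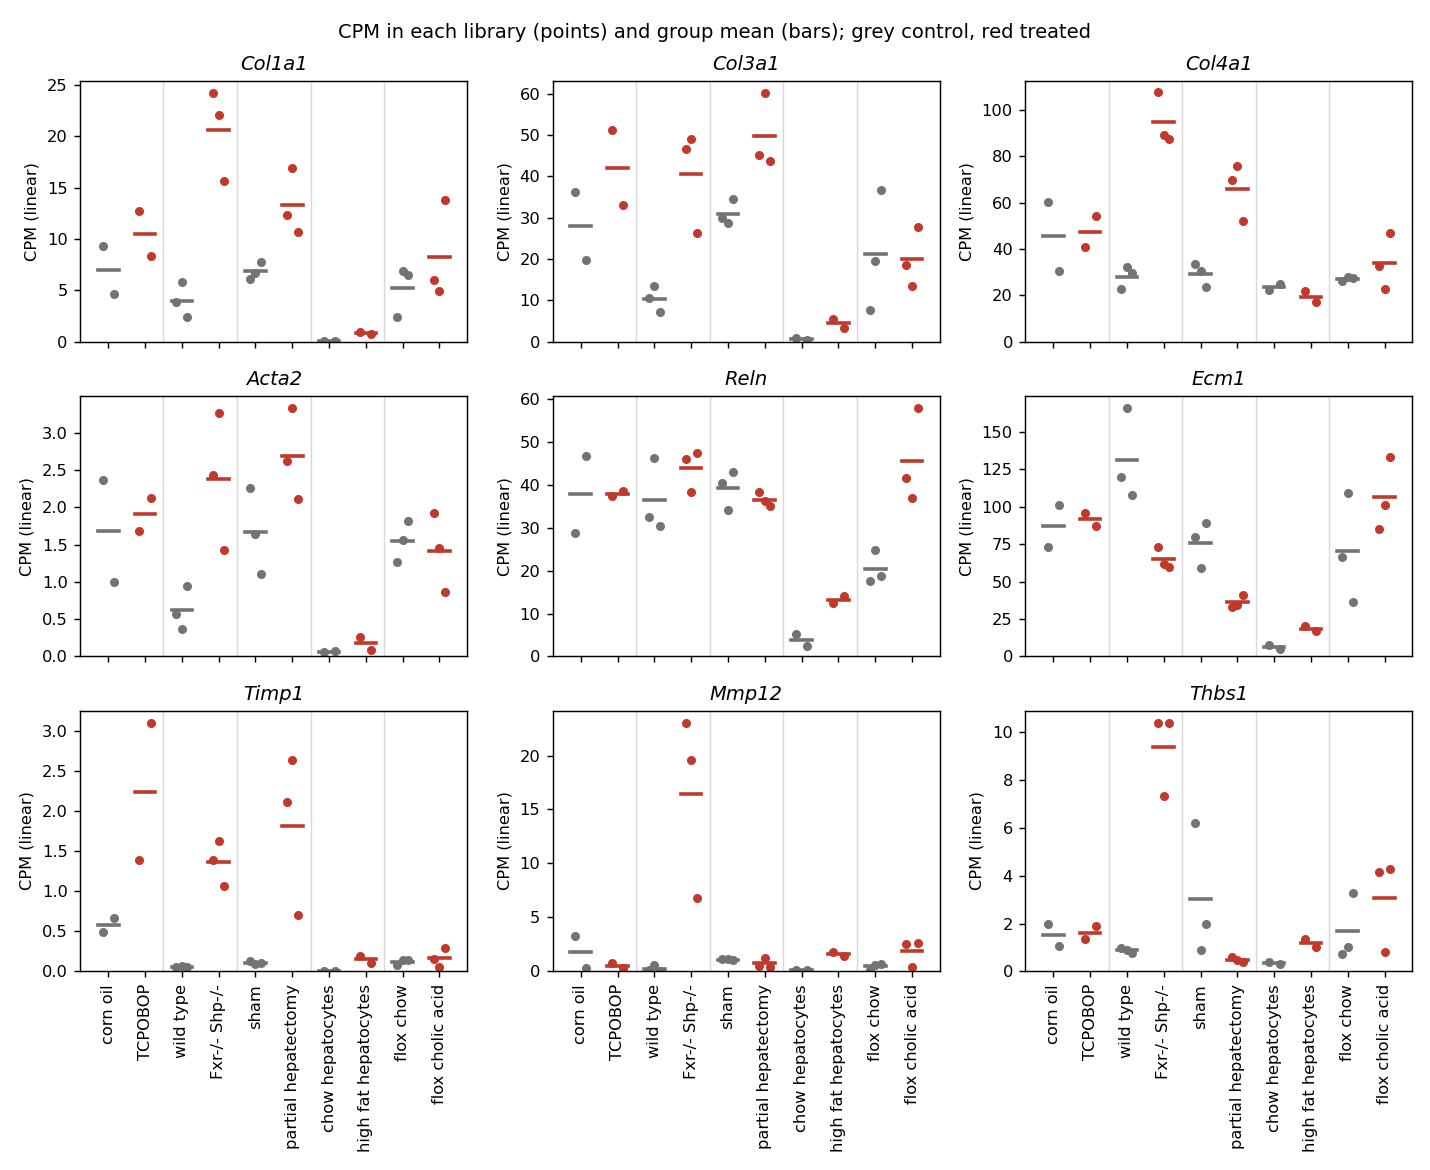
CPM of 9 of the genes in every library, one panel per gene, with grey points for control and red points for treated or mutant libraries and bars for group means. Mmp12 stands at 6.83 to 23 in Fxr-/- Shp-/- livers against 0 to 0.602 in wild type, and Ecm1 is lower than its control in the knockout and after hepatectomy.

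**Figure D4:**
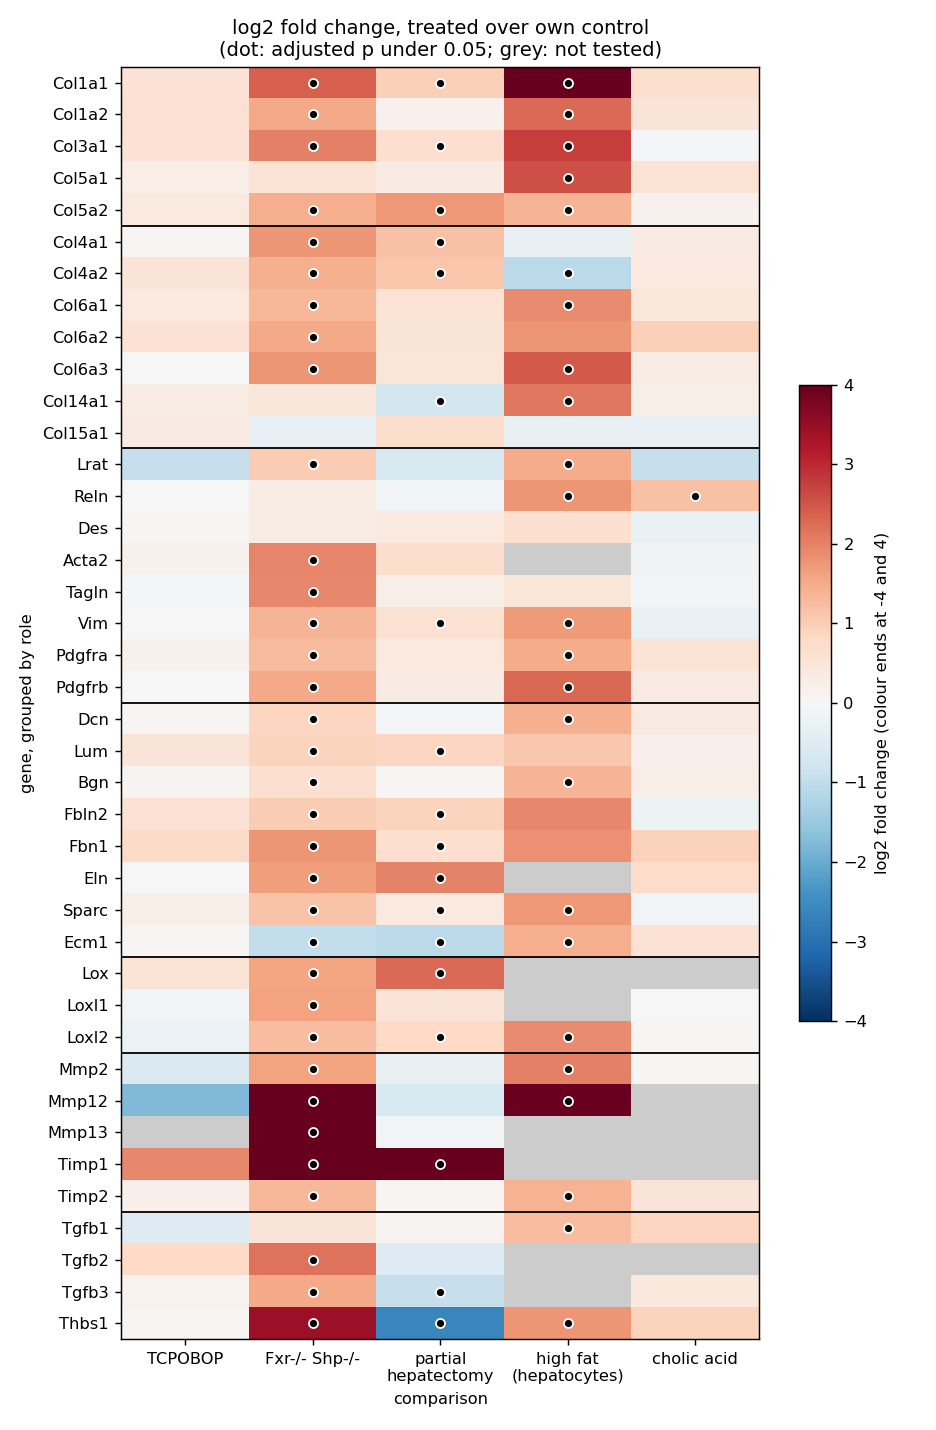
Log2 fold change of the 40 genes (rows, by role) in the 5 comparisons (columns). A dot marks an adjusted p under 0.05, grey marks genes not tested, and colours end at -4 and 4. Dots mark 34 genes in the knockout, 18 after hepatectomy, 24 in high fat hepatocytes, 1 with cholic acid and 0 with TCPOBOP.

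Hepatocytes from mice on the high fat diet held more of most of these transcripts than hepatocytes from chow. Of the 32 genes with enough counts to be tested, 23 rose, 1 fell (Col4a2) and 8 did not pass, with 2 libraries per group. Called changed were 75% of those tested, beside 24% of the 13892 genes tested (12.9% raised and 11.1% lowered). The median log2 change was 1.75 over the tested genes of the list and 0.01 over all genes. The other 8, namely Acta2, Eln, Lox, Loxl1, Mmp13, Timp1, Tgfb2 and Tgfb3, had too few counts. Summed CPM of the 40 genes was 110 and 105 on chow and 178 and 158 on high fat, still below the 398 to 831 of control whole livers.

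All 5 fibrillar collagen genes rose. Col1a1 went from 0.0581 and 0.0346 CPM to 0.915 and 0.735, a ratio of 18.1 (counting interval 7.52 to 56.8) over 5 and 109 counts, with a fitted log2 change of 4.08 ± 0.46 (adjusted p = 0.00554, edgeR). Col3a1 went from 0.832 and 0.433 to 5.45 and 3.31 CPM, a log2 change of 2.77 ± 0.39 (adjusted p = 0.00966, edgeR). Both high fat libraries were above both chow libraries for each. Col5a1 rose by 2.58 ± 0.35, Col1a2 by 2.27 ± 0.32 and Col5a2 by 1.36 ± 0.30.

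Type IV collagen went the other way. Col4a2 was at 36.3 and 38.6 CPM on chow and 20.4 and 16.1 on high fat, and fell by 1.07 on the log2 scale (SE 0.13, adjusted p = 0.00664, edgeR). Col4a1 was at 22.4 and 24.7 against 21.8 and 17 CPM, a difference of -0.31 with an adjusted p of 0.153 (edgeR). With Col15a1, these are the collagen chains whose chow hepatocyte levels were near or above those of whole liver. Of the remaining collagens Col14a1 rose by 2.11 ± 0.24, Col6a1 by 1.88 ± 0.45 and Col6a3 by 2.44 ± 0.59, Col6a2 had a log2 change of 1.75 with an adjusted p of 0.0537 (edgeR), and Col15a1 did not pass.

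Stellate cell genes rose in 5 of 7 tested. Reln was at 5.23 and 2.47 CPM on chow and 12.4 and 14 on high fat, a log2 change of 1.75 ± 0.34 (adjusted p = 0.0196, edgeR). Lrat was at 1.06 and 0.900 against 2.94 and 2.66 CPM, a log2 change of 1.48 ± 0.21 (adjusted p = 0.00967, edgeR). Neither gene overlapped between the diets. Vim rose by 1.69 ± 0.18, Pdgfra by 1.49 ± 0.29 and Pdgfrb by 2.31 ± 0.47. Des and Tagln did not pass, and Acta2, the contractile actin, was at 0.0581 and 0.0692 CPM on chow and 0.255 and 0.0919 on high fat, too few counts to test.

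Among matrix glycoproteins and proteoglycans 4 of 7 tested rose. Sparc was at 4.16 and 4.26 CPM on chow and 13.5 and 15.2 on high fat, a log2 change of 1.74 ± 0.13 (adjusted p = 0.00199, edgeR). Ecm1 was at 7.96 and 5.24 against 20 and 16.9 CPM, a log2 change of 1.45 ± 0.22 (adjusted p = 0.0110, edgeR), whereas it fell in the knockout and hepatectomy livers. Dcn rose by 1.42 ± 0.20 and Bgn by 1.35 ± 0.18. Fbln2 (1.93, adjusted p = 0.0584), Fbn1 (1.84, adjusted p = 0.0544) and Lum (1.08, adjusted p = 0.0869) were higher in both high fat libraries without passing.

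Loxl2 was the 1 cross-linking enzyme tested and rose by 1.90 ± 0.38. Mmp12 was at 0.0968 and 0.104 CPM on chow and 1.82 and 1.42 on high fat, a log2 change of 3.96 ± 0.34 (adjusted p = 0.00328, edgeR). Mmp2 rose by 2.03 ± 0.56 over 7 and 36 counts and Timp2 by 1.38 ± 0.24. Timp1 was at 0 counts in both chow libraries and at 0.195 and 0.107 CPM on high fat. Set against the floor of 3 counts per library, its mean was at least 2.75-fold higher. Tgfb1 rose by 1.23 ± 0.18 and Thbs1 by 1.77 ± 0.32.

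With 1 library left out, 15 of the 24 calls were kept whichever it was. Those lost were Col5a2, Col6a1, Col6a3, Pdgfra, Pdgfrb, Loxl2, Mmp2, Timp2 and Thbs1, all still higher on high fat (log2 1.18 to 2.71, adjusted p 0.0508 to 0.239). Without high fat hepatocytes 1 the number of rises was 14. Without chow hepatocytes 1, Col6a2 passed (2.68, adjusted p = 0.0293) and Col15a1 was lower (-0.63, adjusted p = 0.0459). Mmp2 had an adjusted p of 0.0897 to 0.239 in the 4 fits that leave a library out, and 0.170 with DESeq2. High fat hepatocytes 1 was the higher of its pair in 32 of the 40 genes.

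Sinusoidal endothelial markers rose in 10 of 10, with a median log2 change of 1.24, and their summed level was 69.6 and 71.1 CPM on chow and 174 in both high fat libraries. Kupffer cell markers rose in 4 of 8 (35.8 and 37.5 against 61.5 and 68.5 CPM), and further stellate cell markers rose in 8 and fell in 1 of 13 tested, with a median of 1.86. The summed level of these stellate cell markers was lower on high fat, at 277 and 306 CPM against 321 and 411 on chow. Such a sum follows the most abundant markers: in wild type liver Cxcl12 alone averaged 387 CPM of a summed 434 to 582. The lower sum is therefore not a measure of the list as a whole. Recruited macrophage and leukocyte markers rose in 5 and fell in 1 of 6 tested. The one that fell was Cd9, by 1.49, and the summed level went from 21.9 and 14.8 to 12.9 and 12.3 CPM. Hepatocyte markers fell in 2 of 8. Bile duct markers fell in 1 and rose in 0 of 3 tested, with a median of -1.36. Of 3 portal fibroblast, smooth muscle and mesothelial markers tested 0 were called, with a median of -0.10. Markers of several other liver cells thus moved with the diet, not all in 1 direction, beside 24% of all genes called. Their part in the collagen result was not tested.

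Cholic acid changed 1 gene of the list. In livers of fl/fl Fxr fl/fl Shp mice, Reln was at 17.6, 24.8 and 18.8 CPM on chow and 41.6, 36.9 and 58.0 on cholic acid, a log2 change of 1.16 ± 0.23 (n = 3 per group, adjusted p = 0.0269, edgeR). All cholic acid libraries were above all chow libraries. The other 34 genes tested did not pass, and Lox, Mmp12, Mmp13, Timp1 and Tgfb2 had too few counts. This is 2.86% of those tested, below the 4.77% called among 12577 genes (2.27% raised and 2.50% lowered). The Reln call was lost when any library but flox chow 3 was left out (log2 0.94 to 1.33, adjusted p 0.0541 to 0.0889). With the replicate number as a block, taken here to pair the libraries, the Reln change was 1.15 with an adjusted p of 0.0577 (edgeR).

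Fibrillar collagen levels overlapped between the diets. Col1a1 was at 2.37, 6.85 and 6.45 CPM on chow and 5.96, 4.91 and 13.8 on cholic acid, a log2 difference of 0.66 with an adjusted p of 0.463 (edgeR). Lrat was at 5.85, 8.82 and 16.2 against 5.30, 3.72 and 7.10 CPM, a difference of -0.93 with an adjusted p of 0.206. For Col6a2 (0.94, adjusted p = 0.152), Fbn1 (0.93, adjusted p = 0.156), Tgfb1 (0.85, adjusted p = 0.136) and Eln (0.74, adjusted p = 0.226), every cholic acid library was above every chow library without passing. Flox cholic acid 3 was the highest of its group for 36 of the 40 genes, and flox chow 1 the lowest for 28. The biological coefficient of variation was 26.4% here, against 14.4% in the knockout and 15.6% in the hepatectomy experiment.

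TCPOBOP called 0 of the 39 genes tested, beside 0 of 12785 genes at an adjusted p under 0.05 with edgeR (751 at an unadjusted p under 0.05) and 94 with DESeq2. The median log2 change was 0.17 over the list and -0.02 over all genes. Timp1 had the largest difference, at 0.496 and 0.667 CPM with corn oil and 1.39 and 3.10 with TCPOBOP, a log2 value of 1.93 ± 0.55 with an adjusted p of 0.812 (edgeR). Col1a2 (0.61), Col5a2 (0.40), Col4a2 (0.50), Col6a2 (0.57), Col14a1 (0.31), Lum (0.52), Bgn (0.12), Fbn1 (0.75), Sparc (0.24), Timp2 (0.21) and Tgfb2 (0.81) were higher in both TCPOBOP libraries, and Mmp2 (-0.57), Tgfb1 (-0.52) and Loxl2 (-0.24) lower in both, with adjusted p values of 0.869 to 0.954. In all, 12 of the 40 genes were higher and 3 lower in both, beside 28 and 11 of 133 other matrix and stellate genes. No such count over all genes is set beside these, so they are not read as a result about the list. With 2 libraries per group the smallest exact permutation p for such a separation is 0.333, so it is a description only. Col1a1 was at 9.32 and 4.61 against 12.7 and 8.32 CPM, a difference of 0.58 with overlapping libraries. Without the library labelled corn oil 1, a single corn oil library is left, which must be assumed to vary like the TCPOBOP libraries. Calls then changed for Col1a2 (log2 0.96), Col3a1 (1.09), Col4a2 (1.00), Col15a1 (1.39) and, downward, Lrat (-1.50). Many genes outside the list were called in that fit too, and these values are given as sizes only. Without corn oil 2 instead, the Mmp12 call changed, with a log2 value of -2.63.

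Whether responses differed between experiments was tested in a single edgeR fit of 18 whole liver libraries and 14426 genes, as the difference between log2 effects. The 3 differences share libraries, so their counts are not independent. The knockout effect differed from the cholic acid effect for 16 genes, which is 40% of the list beside 18.6% of all genes (9.14% higher and 9.48% lower). It was larger for 14, among them Col1a1 by 1.72 ± 0.57 (adjusted p = 0.0447), Col3a1 by 2.08 ± 0.57 (adjusted p = 0.0177), Col4a1 by 1.43 ± 0.31 (adjusted p = 0.00354) and Acta2 by 2.06 ± 0.59 (adjusted p = 0.0210). For Lrat, which rose in the knockout, the difference was 1.94 ± 0.48 (adjusted p = 0.00993). For Reln (-0.88 ± 0.26) and Ecm1 (-1.61 ± 0.41) the knockout effect was lower. Of the 16, Col4a1, Lrat, Tagln, Vim, Fbln2, Sparc and Ecm1 kept the call whichever library was left out, and the 9 others, Col1a1 and Col3a1 included, did not. With the replicate number as a block, Acta2 (2.05, adjusted p = 0.0570), Col6a3 (1.52, adjusted p = 0.0610) and Reln (-0.85, adjusted p = 0.0774) lost the call and Thbs1 gained one (2.55, adjusted p = 0.0366). That block also pairs the knockout and wild type libraries by number, which were not taken to be pairs. The mice also differ in age, fasting and the floxed alleles of the cholic acid experiment, which cannot be told apart from genotype and diet here.

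Between knockout and hepatectomy, the effects differed for 12 genes, 30% of the list beside 23.2% of all genes (10.5% higher and 12.7% lower), and all 12 effects were higher in the knockout. Thbs1 differed by 6.02 ± 0.97 (adjusted p = 0.000268), Mmp12 by 6.75 ± 1.05 (adjusted p = 0.000212), Mmp13 by 5.03 ± 1.20, Tgfb2 by 2.68 ± 0.69, Tgfb3 by 2.41 ± 0.48, Mmp2 by 1.88 ± 0.51 and Tagln by 1.67 ± 0.41. These 7 kept the call whichever library was left out. Lrat (1.62), Col6a3 (1.29), Timp2 (1.23), Pdgfrb (1.17) and Col14a1 (1.16) did not. For Col1a1 the difference of 1.42 ± 0.55 had an adjusted p of 0.0717, and for Col3a1 the difference of 1.30 ± 0.56 had one of 0.105. Timp1 differed by 0.43 ± 0.92 (adjusted p = 0.789) and Ecm1 by 0.06 ± 0.40 (adjusted p = 0.942), which does not show that the effects were alike. With the replicate block, Col6a3 lost the call (1.32, adjusted p = 0.0671), and Col1a1 (1.49, adjusted p = 0.0300), Col1a2 (1.42, adjusted p = 0.0429), Col3a1 (1.31, adjusted p = 0.0366), Vim (0.75, adjusted p = 0.0388) and Sparc (0.74, adjusted p = 0.0494) gained one. The numbers were not taken to pair the libraries in either experiment, so the calls gained or lost with that block rest on an arbitrary pairing. The mice of the 2 experiments differ in strain, so genotype, surgery and strain cannot be told apart in these differences.

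**Figure D5:**
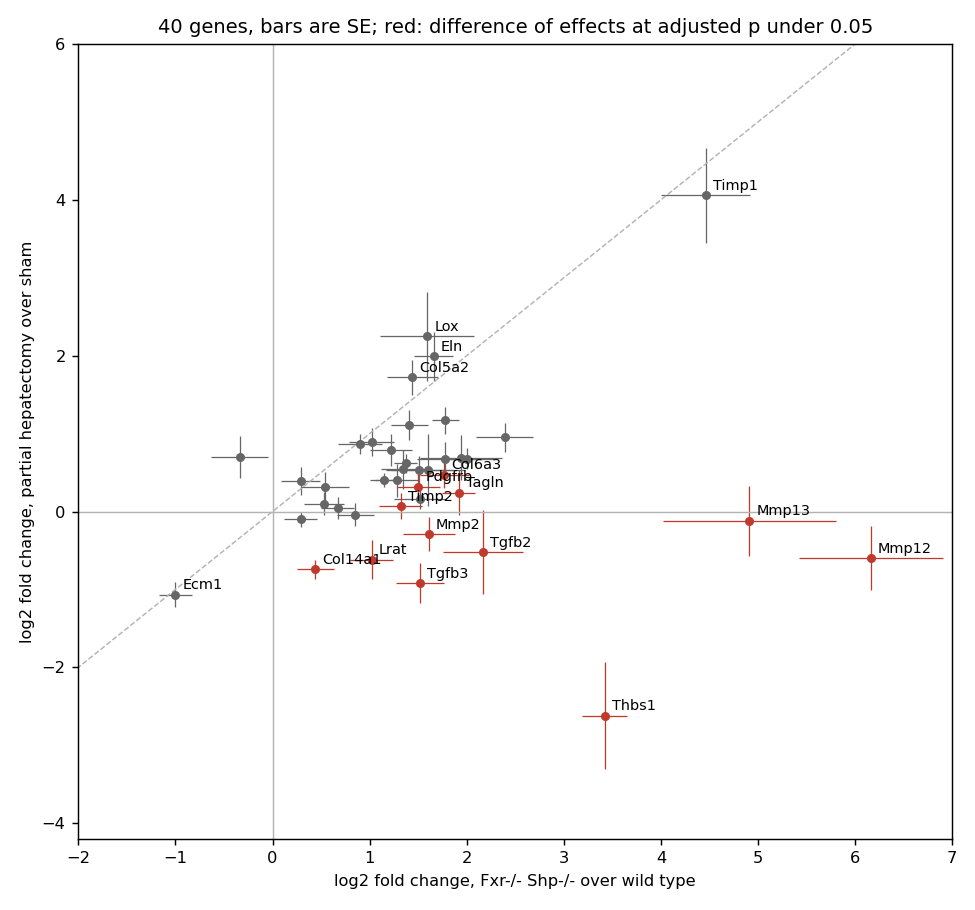
Log2 fold change of each of the 40 genes in Fxr-/- Shp-/- against wild type liver (x axis) and in partial hepatectomy against sham (y axis), with SE bars. Red marks the 12 genes whose 2 effects differ at an adjusted p under 0.05; Thbs1 lies at 3.42 and -2.62, Timp1 at 4.46 and 4.06.

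The hepatectomy effect differed from the cholic acid effect for 7 genes, 17.5% of the list beside 17.3% of all genes (10.2% higher and 7.13% lower). It was higher for Timp1 (3.56), Eln (1.24), Fbln2 (1.10) and Vim (0.89), and lower for Thbs1 (-3.50), Ecm1 (-1.67) and Reln (-1.26). Ecm1 and Reln kept the call whichever library was left out. Timp1, which did not, had too few counts to be tested within the cholic acid experiment. Without sham 1 the Thbs1 difference was -2.43 with an adjusted p of 0.0616. With the replicate block Eln lost the call (1.32, adjusted p = 0.0570) and Col5a2 gained one (1.51, adjusted p = 0.0486). That block also pairs the sham and hepatectomy libraries by number, which were not taken to be pairs. These experiments differ in strain, fasting and the floxed alleles too, which cannot be told apart from surgery and diet.

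Across the comparisons 6 genes rose in the knockout, after hepatectomy and in high fat hepatocytes: Col1a1, Col3a1, Col5a2, Vim, Sparc and Loxl2. With a library left out, Loxl2 lost its call after hepatectomy and in hepatocytes, and Col5a2 lost it in hepatocytes. Col15a1 and Des passed the test in none of the 5 comparisons with all libraries included. These are calls against separate controls. No test was made of their overlap, and the overlap among all genes is not set beside it.

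Matrix and stellate genes outside the 40 were also counted. Of 133 such genes on the wider list, 108 were tested in the knockout, and 50 rose and 7 fell, with a median log2 change of 0.70, beside 40.4% of all genes called. Plat (tissue plasminogen activator) rose from 0.231 ± 0.166 to 4.64 ± 0.900 CPM (SD, n = 3 per group), by 4.34 on the log2 scale, and Npnt (nephronectin, a matrix glycoprotein) rose by 3.41. Cxcl12, a chemokine made by stellate cells, fell by 0.86 and Angptl6 by 1.50. After hepatectomy 21 rose and 17 fell of 108, beside 30.7% of all genes, with Adam12 at 1.67 and Col12a1 at 1.34 among the rises, and Ltbp4 at -1.24 and Lama4 at -1.13 among the falls. In high fat hepatocytes 34 rose and 10 fell of 96, beside 24% of all genes. Postn (periostin, 2.64) and Lama4 (2.15) had the largest rises among those with an average log2 CPM of at least 0, while Ccn1 fell by 1.08. With cholic acid 2 of 101 rose, Nid1 (1.69) and Mmp14 (1.20), and 2 fell, Bmp1 (-0.87) and Vtn (-0.77), beside 4.77% of all genes. TCPOBOP called 0 of 103, as it called 0 of all genes.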

How the data were processed

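Poly(A) RNA of mouse liver or isolated hepatocytes was sequenced after stranded TruSeq mRNA preparation, per the labels' protocols. The submitters' processing notes name bcl2fastq 2.17.1.14, Trimmomatic, STAR 2.4.2a, Picard 1.119 and HTSeq, and the builds GRCm38 and mm10. The strand option and annotation release of the counting are not given in the sources used here. The authors deposited raw read counts per gene for the 26 libraries, with 47643 genes and 5 summary lines, which held 23.0% to 48.6% of reads and were left out of library sizes and tests. Symbols were matched for 47224 gene identifiers. Lengths and positions come from GENCODE M21 (GRCm38) and promoters from RefSeq (GRCm38.p6).

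Counts were tested per experiment in R 4.3.3 with edgeR 4.0.16 (filterByExpr with a minimum count of 10 and total of 15, TMM, quasi-likelihood F test), with Benjamini-Hochberg adjustment over all genes tested and a threshold of 0.05. Standard errors were derived from the fitted log2 fold change and its F statistic. Differences between effects used 18 whole liver libraries in 1 fit. Alternatives were other scalings, DESeq2 1.42.0, other filters and thresholds, all 26 libraries in 1 fit, a replicate block and leaving out each library. The scripts were tested on simulated counts. Samples were grouped by the labels.

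All 40 genes are accounted for; full statistics go to those called and to those whose groups do not overlap. Genes of the wider list are named where they are among the 4 largest rises or falls called, with an average log2 CPM of at least 0. Some genes of the wider list are not reported here. The listed genes and the wider lists were chosen with earlier results of these data known.

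Replicate numbers were taken to pair libraries where an experiment had at least 3 pairs and each pair's deviations correlated above 0.1 across genes, which held for cholic acid (0.133, 0.155 and 0.103). The pairing there comes from these correlations and the numbers in the titles. Differently numbered libraries reached 0.104 in the knockout (Fxr-/- Shp-/- 2 with wild type 1) and 0.106 after hepatectomy (hepatectomy 3 with sham 1). Correlations of this size therefore cannot show that libraries are pairs, and the pairing is an assumption. With composition factors left out (library totals only), the median of all genes moved by 0.19 in the knockout, 0.20 after hepatectomy, 0.14 in hepatocytes, 0.19 with cholic acid and -0.11 with TCPOBOP on the log2 scale. The split of all genes into raised and lowered then went from 2823 and 2618 to 4125 and 1277 in the knockout, from 2256 and 1969 to 3730 and 1053 after hepatectomy, from 1789 and 1544 to 2502 and 872 in hepatocytes, and from 285 and 315 to 556 and 243 with cholic acid. The listed genes then split into 35 raised and 1 lowered, 19 and 3, 26 and 1, and 1 and 0. With upper quartile factors the hepatocyte split was 2244 and 979.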

Additional observations from a re-analysis of the deposited data

Results flagged for a closer look

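The responses of several genes differed between experiments by the test of the difference itself (edgeR, 18 whole liver libraries in 1 fit, adjusted p under 0.05 over all genes). The values are differences between log2 effects, and the 3 comparisons share libraries. For the knockout minus cholic acid they were 1.72 for Col1a1, 2.08 for Col3a1, 1.43 for Col4a1, 1.01 for Col4a2, 1.47 for Col6a3, 1.94 for Lrat, 2.06 for Acta2, 2.01 for Tagln, 1.63 for Vim, 1.22 for Fbln2, 1.26 for Sparc, 4.19 for Mmp12, 5.20 for Mmp13 and 3.99 for Timp1. Downward they were -0.88 for Reln and -1.61 for Ecm1. The Col4a2 value lay just under the threshold of 0.05. Mmp12, Mmp13 and Timp1 had too few counts to be tested within the cholic acid experiment and were near the floor in wild type. Their differences thus rest mainly on the mutant libraries, and each lost its call when a library was left out.

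For hepatectomy minus cholic acid the differences were 0.89 for Vim, 1.10 for Fbln2, 1.24 for Eln, 3.56 for Timp1, -1.26 for Reln, -1.67 for Ecm1 and -3.50 for Thbs1. Timp1 had too few counts to be tested within the cholic acid experiment. For the knockout minus hepatectomy they were 1.29 for Col6a3, 1.16 for Col14a1, 1.62 for Lrat, 1.67 for Tagln, 1.17 for Pdgfrb, 1.88 for Mmp2, 6.75 for Mmp12, 5.03 for Mmp13, 1.23 for Timp2, 2.68 for Tgfb2, 2.41 for Tgfb3 and 6.02 for Thbs1.

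Between further pairs of experiments, genes moved one way in every library of one and the opposite way in every library of the other, and these differences were not tested. With 2 libraries per group, as with TCPOBOP and in hepatocytes, the smallest exact permutation p for such a separation is 0.333. In high fat hepatocytes Col4a1 was lower (-0.31) and Col4a2 was lower (-1.07), while both were higher in the knockout and after hepatectomy, and Col4a2 also with TCPOBOP. Col14a1 was lower after hepatectomy (-0.74) and higher with TCPOBOP and in high fat hepatocytes (2.11). Ecm1 was higher in high fat hepatocytes (1.45) and lower in the knockout and after hepatectomy. Thbs1 was higher in high fat hepatocytes (1.77) and lower after hepatectomy. With TCPOBOP, Loxl2 (-0.24), Mmp2 (-0.57) and Tgfb1 (-0.52) were lower in both libraries. Loxl2 was higher in the knockout (1.22), after hepatectomy (0.79) and in high fat hepatocytes (1.90), Mmp2 in the knockout (1.61) and high fat hepatocytes (2.03), and Tgfb1 in high fat hepatocytes (1.23) and with cholic acid (0.85).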

How the results depend on the processing

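No called gene of the 40 reversed direction under the alternatives run. With a minimum absolute log2 fold change of 1, hepatectomy raised 6 and lowered 2 of the genes. With all 26 libraries in 1 fit it raised 9, and cholic acid raised 3. The replicate block left cholic acid with 0 raised genes, where the numbers were taken to pair the libraries. In the other experiments the numbers were not taken to pair the libraries: same-numbered libraries had correlations of -0.176, -0.038 and -0.019 in the knockout and -0.075, 0.072 and -0.001 after hepatectomy, and hepatocytes (0.094 in both pairs) and TCPOBOP (0.104 in both) have fewer than 3 pairs. The block gave 33 raised and 1 lowered in the knockout, 13 and 4 after hepatectomy, 24 and 1 in hepatocytes, and 0 with TCPOBOP. With the block the differences of effects numbered 14 for knockout minus cholic acid, 7 for hepatectomy minus cholic acid and 16 for knockout minus hepatectomy. Leaving out each library gave raised and lowered ranges of 30 to 36 and 1 to 1 in the knockout, 11 to 15 and 3 to 4 after hepatectomy, 14 to 19 and 1 to 2 in hepatocytes, 0 to 1 and 0 to 0 with cholic acid, and 0 to 4 and 0 to 1 with TCPOBOP. The differences of effects ranged from 9 to 21 for knockout minus cholic acid, 3 to 9 for hepatectomy minus cholic acid and 7 to 18 for knockout minus hepatectomy. Over every alternative 31 of 34 knockout calls, 9 of 18 hepatectomy calls, 14 of 24 hepatocyte calls and 0 of 1 cholic acid calls were kept, leaving the minimum fold change aside. Leaving a library out of a group of 2 assumes that the lone sample varies like the other group. The cause of each lost call was not tested. Low counts limit Lox, Mmp13, Timp1 and Tgfb2, and in hepatocytes also Col1a1 and Mmp2.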

Other observations

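Type I collagen is built from the Col1a1 and Col1a2 chains. The ratio of their counts is given as a description, since it was chosen after the single-gene values were seen and no exact test at these sizes can go below 0.05. It was 0.371 ± 0.0274 in wild type and 0.672 ± 0.0739 in Fxr-/- Shp-/- liver, and 0.513 ± 0.0324 in sham and 0.888 ± 0.160 after hepatectomy (SD, n = 3 per group). The groups did not overlap in either experiment, and the two-sided exact permutation p was 0.1 in both, which is the smallest that 3 against 3 can give. In chow hepatocytes it was 0.102 ± 0.0318 and in high fat hepatocytes 0.385 ± 0.0675, an exact p of 0.333, the smallest for 2 against 2. With cholic acid it went from 0.603 ± 0.0598 to 0.622 ± 0.0702 (exact p = 0.900), and with TCPOBOP from 0.673 ± 0.130 to 0.673 ± 0.0744 (exact p = 1.00). These 5 comparisons were not adjusted. Reads in hepatocyte libraries rest on few Col1a1 counts, 3 and 2 on chow.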
